A study of Homo sapiens with 12 samples.

Results

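RNA levels were compared between MD901 cells with the hairpin shCREBBP.3753 and MD901 cells with the hairpin shCREBBP.1027. MD901 is a human lymphoma line of the diffuse large B-cell kind, GCB (germinal centre) subtype, with no CREBBP mutation according to the labels. A short hairpin RNA is processed in the cell into a small RNA that lowers messages it can pair with. The libraries were chosen by their labels: 3 libraries of shCREBBP.3753 against 3 of shCREBBP.1027, which makes 6 of the 12 libraries of the study. The other 6 carried another CREBBP hairpin, shCREBBP.572, or a scramble hairpin; they entered no test and are given only as side values. Both groups compared therefore carried a hairpin against the same gene, with no untreated group between them. The labels call one hairpin shCREBBP.1027 in one field and shCREBBP.11027 in another. All cells grew in IMDM with 10% serum, and total RNA over 200 nt, depleted of ribosomal RNA, was sequenced. Whether replicates were separate cultures is not in the labels; the p-values then reflect only how far these libraries scatter, which may be technical. With 1 hairpin sequence per group, effects of the CREBBP level, of other messages that a hairpin can pair with, and of separate growth of the cells cannot be told apart.

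CREBBP and its close relative EP300 are large acetyltransferases that are recruited by transcription factors and acetylate histones, above all at enhancers. In germinal centre B cells CREBBP is known to act at enhancers that BCL6 and its corepressors silence, genes of antigen presentation among them. CREBBP is one of the genes most often mutated in lymphomas of germinal centre origin. Interferon-stimulated genes are the antiviral programme of a cell, switched on through STAT and IRF transcription factors, and MHC class I is among the genes that interferon raises.

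The 6 libraries of the comparison were alike in depth except for a pair. The number of reads is unknown. Relative depth read from the steps of low values was 0.990 to 1.21 with shCREBBP.1027, and 1.8, 1.75 and 1.17 with shCREBBP.3753. Libraries of the same hairpin were close, with mean Spearman correlations across rows of 0.980 with shCREBBP.1027 and 0.984 to 0.985 with shCREBBP.3753, against 0.935 to 0.945 between the hairpins. The structural RNA of RNase MRP, RMRP, took 12.1% to 13.3% of all FPKM with shCREBBP.1027 and 17.1% to 18.4% with shCREBBP.3753. RPPH1, the RNA of RNase P, took 8.13% to 10.1% and 3.8% to 4.0%. The part of depth and of these abundant RNAs in the results was not tested. Among the side groups, scramble replicate 1 stood apart for several long messages and scramble replicate 3 was the deepest library, at 3.25.

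A large share of the transcriptome differed. Values are FPKM, fragments mapped to a row relative to its length and to the library's total, and differences are on the log2(FPKM + 1) scale, shCREBBP.3753 minus shCREBBP.1027, with the standard error (SE) of the limma fit. Of 11757 rows tested, 3418 were called higher with shCREBBP.3753 (29.1%) and 2313 lower (19.7%) at a Benjamini-Hochberg adjusted p of 0.05, together 48.7%. Of the called rows 59.6% were higher, a share that was 49.3% after quantile normalization, 47.2% after upper-quartile scaling and 51.7% with a correction for transcript length and GC content. The median difference over all rows was 0.04, and -0.02 and -0.04 under the first and second of these scalings. Most differences were small: the median absolute difference of called rows was 0.53, beside a median SE of 0.10. A difference of at least 1 was called for 773 rows (6.57%), 485 in the higher direction (4.13%) and 288 in the lower (2.45%). The 2 groups of 3 libraries did not overlap on 6917 rows (58.8%). Of the tested rows 116 reached the filter only through shCREBBP.3753, with 48 of them called higher, and 243 only through shCREBBP.1027, with 126 called lower; the filter itself favoured a difference on such rows. Counts within a gene list are given below and are to be read beside these shares of all rows.

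CREBBP RNA was lower with shCREBBP.3753. The CREBBP row (hg19 chromosome 16, 3775056 to 3930121) held 11.4, 11.7 and 12.6 FPKM with shCREBBP.1027 and 5.92, 6.16 and 6.1 FPKM with shCREBBP.3753. Every shCREBBP.3753 library lay below every shCREBBP.1027 library. The log2 difference was -0.87 ± 0.06 (SE, n = 3 and 3; limma adjusted p = 2.7e-04), and the two-sided exact permutation p was 0.1, the smallest that 20 splits allow. EP300 (hg19 chromosome 22, 41488465 to 41576128), on a row shared with MIR1281, was lower to a similar extent, at 14.3, 10.7 and 15.4 FPKM against 6.56, 7.1 and 6.16 FPKM. Its groups did not overlap either, with a difference of -0.91 ± 0.14 (SE; limma adjusted p = 0.00290; exact permutation p = 0.1). The labels name CREBBP as the target of both hairpins. CREBBP stood at 7.99, 7.53 and 6.91 FPKM with shCREBBP.572 and 13.7, 7.1 and 5.82 FPKM with scramble, so shCREBBP.1027 was the hairpin group with the most CREBBP RNA. Its mean of 11.9 FPKM was above the scramble mean of 8.88 FPKM, and the shCREBBP.3753 libraries lay within the range of the scramble libraries.

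The list of acetyltransferases moved in both directions. It held 17 acetyltransferases and coactivators, CREBBP and EP300 among them. Of the 15 tested, 4 were higher (26.7%, against 29.1% of all rows). Lower were 6 (40.0%, against 19.7%), CREBBP and EP300 included. KAT2B (PCAF), an acetyltransferase known to bind CREBBP and EP300, rose from 1.24, 1.25 and 1.41 FPKM to 3.98, 4.06 and 4.82 FPKM, a difference of 1.20 ± 0.10 (SE; limma adjusted p = 4.1e-04). The nuclear receptor coactivators NCOA1 and NCOA3 rose by 0.63 and 0.57. The MYST-family enzymes KAT5, KAT8 and KAT7 fell, with differences of -0.56, -0.54 and -0.44. HDAC3, a histone deacetylase of corepressor complexes that BCL6 recruits, held 20.5, 21.4 and 21.4 FPKM with shCREBBP.1027 and 51.8, 50.5 and 56.4 FPKM with shCREBBP.3753. That difference of 1.28 ± 0.05 (SE; limma adjusted p = 6.5e-05) was the largest of the 22 tested BCL6 partners and deacetylases, of which 6 were higher and 6 lower (27.3% each, against 29.1% and 19.7% of all rows). In a fit of all 12 libraries 2 were lower. BCL6 itself, the repressor of the germinal centre programme, rose by 0.44.

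**Figure D1:**
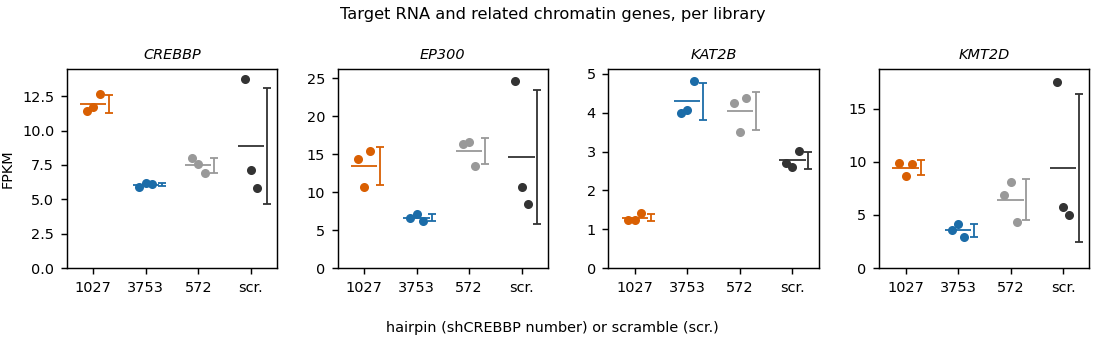
FPKM per library (points, vertical axis) for 4 genes in the 4 groups of 3 libraries, with the mean (line) and SD (bar at the side). CREBBP, EP300 and KMT2D were lower and KAT2B higher in all 3 shCREBBP.3753 libraries than in the shCREBBP.1027 libraries; 1 scramble library stands apart for the 3 long messages.

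Genes for modifiers of chromatin that are often mutated in lymphoma were mostly lower. Of 21 listed, 20 were tested, 14 were lower (70.0%, against 19.7% of all rows) and 4 higher, with a median difference of -0.54. Over the alternatives 12 to 16 were lower and 2 to 4 higher. KMT2D (hg19 chromosome 12, 49412740 to 49453750), the histone H3 lysine 4 methyltransferase that is the other frequently mutated enhancer enzyme of this lymphoma, fell from 9.88, 8.64 and 9.8 FPKM to 3.6, 4.17 and 2.95 FPKM. The KMT2D groups did not overlap, and the difference was -1.20 ± 0.12 (SE; limma adjusted p = 6.9e-04). The related methyltransferases SETD1B, SETD1A and KMT2C had differences of -1.18, -0.78 and -0.65, and the SWI/SNF remodelling subunits ARID1A, ARID1B and SMARCA4 had -0.85, -0.83 and -0.59. All of these were called, though ARID1A was not in a fit of all 12 libraries (limma adjusted p = 0.0708, against 0.0095 without them). EZH2, the methyltransferase of Polycomb complex 2, fell by 0.28, whereas its partner SUZ12 rose by 0.32. The DNA methyltransferases went apart: DNMT1 had -0.31, DNMT3B 0.57 and DNMT3A 0.77, the last called in the 6-library fit but not in many of the alternatives. Most of these genes have long messages. Of the 20, 16 were in the longest of 4 equal bins of rows (5194 bases or more), where 21.2% of all rows were lower, and 27.7% of the 256 rows both longest and richest in GC were lower. The part of message length in the list's count was not tested beyond the correction for length and GC content, under which 15 members were lower.

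Interferon-stimulated genes were higher with shCREBBP.3753. Of 50 listed, 39 passed the filter on low values; 30 were higher (76.9%, against 29.1% of all rows), none was lower and 12 rose by at least 1, with a median difference of 0.72. LGALS3BP, a secreted galectin-binding glycoprotein, was at 3.33, 3.32 and 3.11 FPKM with shCREBBP.1027 and 41.5, 38.9 and 38.7 FPKM with shCREBBP.3753. Its 3.26 ± 0.06 (SE; limma adjusted p = 6.8e-06) was among the 3 largest rises of the named genes, and the row (hg19 chromosome 17, 76967276 to 76976061) stood at only 1.24, 1.77 and 1.21 FPKM with shCREBBP.572 and 2.5, 2.96 and 3.62 FPKM with scramble. IFI6, a mitochondrial protein induced by interferon, rose from 1.49, 2.27 and 1.6 FPKM to 17.6, 30.03 and 18.3 FPKM, 3.01 ± 0.23 (SE; limma adjusted p = 2.7e-04). In both genes the libraries of shCREBBP.3753 lay apart from all 9 others. IFI44L held 0.223, 0.107 and 0.134 FPKM and 1.98, 4.82 and 3.81 FPKM, but it reached the filter of a mean of 1 FPKM over the 12 libraries only through shCREBBP.3753, as did IFIT2 and USP18. Of the other 36 members, 29 were higher (80.6%).

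The transcription factors STAT2, IRF9 and IRF7, which carry or amplify the signal, rose by 1.08, 0.43 and 1.11. The antiviral effectors OAS2, OAS1, MX2 and ISG15 rose by 1.29, 0.59, 0.77 and 0.44, and BST2 (tetherin), which holds budding virus at the membrane, by 1.8. PARP9 and its partner DTX3L, with PARP14, rose by 1.82, 1.08 and 1.25. Of the 39 tested members 9 were not called. Among these, the classical induced genes IFIT2, IFIT3 and IFI44 had differences of 0.21, 0.47 and 0.56, and IRF1 and IFITM2 stood at -0.10 and -0.23. Under the alternatives 23 to 33 members of the list were higher and at most 1 was lower.

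Promoters of 4 genes are shown because a script found the core of the interferon-stimulated response element in them, searched on both strands as GAAA, any 2 bases, and GAAA again. Each is 250 bases before and 50 after the start of the gene in RefSeq on GRCh38.p14, read along the gene 5′ to 3′, and capitals mark the matches. LGALS3BP and IFI6 had the largest rises of the list, and BST2 and B2M were chosen after their values were seen, as another interferon-stimulated gene and a gene of MHC class I. BST2 held 9.73, 8.25 and 7.39 FPKM and 32.8, 32.6 and 30.2 FPKM, and B2M held 134, 158 and 147 FPKM and 237, 236 and 266 FPKM, in shCREBBP.1027 and shCREBBP.3753 in turn. All 4 genes had groups that did not overlap, as did 58.8% of all tested rows. The match begins 58 bases before the start in LGALS3BP (chr17:78979874-78980173, minus strand), and 156, 115 and 93 bases before it in IFI6 (chr1:27672143-27672442, minus strand). Pairs of overlapping matches begin 130 and 124 bases before the start of BST2 (chr19:17405581-17405880, minus strand), and 144 and 138 before that of B2M (chr15:44711267-44711566, plus strand).
LGALS3BP: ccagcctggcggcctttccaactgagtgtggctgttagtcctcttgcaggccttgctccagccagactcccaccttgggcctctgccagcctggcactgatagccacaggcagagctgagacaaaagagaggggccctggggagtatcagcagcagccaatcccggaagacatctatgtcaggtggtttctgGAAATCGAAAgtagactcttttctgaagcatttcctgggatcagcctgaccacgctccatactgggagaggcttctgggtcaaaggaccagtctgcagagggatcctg
IFI6: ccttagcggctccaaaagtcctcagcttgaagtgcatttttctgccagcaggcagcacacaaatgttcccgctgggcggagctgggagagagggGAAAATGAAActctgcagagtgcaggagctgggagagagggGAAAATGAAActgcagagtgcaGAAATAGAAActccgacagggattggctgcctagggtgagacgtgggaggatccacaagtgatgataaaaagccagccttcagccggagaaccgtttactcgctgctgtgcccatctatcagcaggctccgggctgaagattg
BST2: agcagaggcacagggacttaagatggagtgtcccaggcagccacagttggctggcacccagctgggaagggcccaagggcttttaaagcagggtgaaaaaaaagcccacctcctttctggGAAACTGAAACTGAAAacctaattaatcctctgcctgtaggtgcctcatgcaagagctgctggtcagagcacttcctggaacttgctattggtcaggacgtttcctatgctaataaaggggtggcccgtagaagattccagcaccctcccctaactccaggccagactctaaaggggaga
B2M: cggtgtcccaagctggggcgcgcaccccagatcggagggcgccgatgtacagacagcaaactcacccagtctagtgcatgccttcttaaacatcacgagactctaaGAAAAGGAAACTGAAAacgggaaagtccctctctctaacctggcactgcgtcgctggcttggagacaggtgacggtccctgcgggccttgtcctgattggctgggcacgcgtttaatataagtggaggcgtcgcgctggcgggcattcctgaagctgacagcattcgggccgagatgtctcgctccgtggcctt
The motif was in 3.57% of all 35116 promoters of the table and in 2.93% of the 8328 promoters of tested rows. Of the tested interferon-stimulated genes, 31 had a promoter in the table and 19 of these held it (61.3%). Those called higher held it at nearly the same rate, 15 of 25 (60.0%). For MHC class I and the immunoproteasome it was 8 of 12 (66.7%), and for MHC class II 0 of 14. A match describes the letters in the window and is not a bound site.

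Sensors and signalling molecules upstream of these genes moved less. Of 29 listed, 24 were tested, with 11 higher (45.8%), 2 lower (8.33%) and a median of 0.24. The shares of all rows were 29.1% and 19.7%. Over the alternatives 8 to 12 were higher and 1 to 5 lower, the most with the length and GC correction. UNC93B1, the chaperone that carries Toll-like receptors to endosomes, rose from 8.69, 8.79 and 6.31 FPKM to 20.8, 23.8 and 20.6 FPKM, 1.36 ± 0.13 (SE; limma adjusted p = 6.2e-04). MAVS, the adaptor of the cytosolic RNA sensors, rose by 0.62 and the kinase JAK1 by 0.53. The RNA sensors RIG-I (DDX58) and MDA5 (IFIH1) were at -0.02 and 0.33, neither called, while the kinase PKR (EIF2AK2), which binds double-stranded RNA, rose by 0.34. TLR7, the endosomal receptor for single-stranded RNA, fell from 6.28, 6.4 and 7.35 FPKM to 1.51, 1.56 and 2.15 FPKM, -1.49 ± 0.12 (SE; limma adjusted p = 3.5e-04). The feedback inhibitor SOCS1 was called lower (-0.63), but that call was lost when any of 5 of the 6 libraries was left out. In the machinery that processes small RNAs and hairpins, 12 of 13 genes were tested, 5 higher (41.7%) and 4 lower (33.3%), but 2 were higher after quantile normalization or upper-quartile scaling. DICER1 and its partner PRKRA rose by 0.65 and 0.93, though a further PRKRA row was not called. DROSHA, AGO3 and TNRC6C fell by 0.38, 0.54 and 1.00.

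Genes of antigen presentation were higher with shCREBBP.3753, the group with less CREBBP RNA. For MHC class I and the immunoproteasome, 20 listed genes gave 16 tested rows, of which 14 were higher (87.5%, against 29.1% of all rows). None was lower, and the median was 0.66. The heavy-chain row named HLA-B and HLA-C held 169.6, 171 and 174 FPKM against 453, 446 and 419 FPKM, 1.35 ± 0.05 (SE; limma adjusted p = 4.4e-05). B2M, the light chain, rose by 0.75, the peptide loading factors TAPBP and CALR by 0.75 and 0.80, the transporter row TAP1 with PSMB8 by 0.58, and the trimming peptidase ERAP1 by 0.75. TAP2 (-0.03) and ERAP2 (0.20) were not called. NLRC5, the transactivator of class I genes, rose by 0.33.

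For MHC class II, 20 listed genes gave 18 rows, 17 tested, of which 14 were higher (82.4%, against 29.1% of all rows). None was lower, and the median was 0.62. HLA-DOA, a chain of the modulator of peptide loading, rose most, from 7.1, 7.95 and 7.66 FPKM to 23.5, 22.9 and 22.6 FPKM, 1.49 ± 0.06 (SE; limma adjusted p = 5.8e-05). HLA-DQA1 followed, from 12.3, 12.6 and 13 FPKM to 24.7, 24.1 and 27.2 FPKM, 0.95 ± 0.06. HLA-DRA, the invariant chain CD74 and the loading factors HLA-DMA and HLA-DMB rose by 0.76, 0.61, 0.81 and 0.81. CIITA, the master transactivator of class II genes, held 18.5, 18.5 and 18.9 FPKM against 17.7, 17.5 and 15.5 FPKM and was not called (-0.13). Of the RFX complex, which binds class II promoters, RFX5 rose by 0.62, and RFXANK and RFXAP were not called. Summed over the listed class II rows, levels were 1110 to 1180 FPKM with shCREBBP.1027 and 1740 to 1790 FPKM with shCREBBP.3753, beside 1260 to 1270 with shCREBBP.572 and 1770 to 2520 with scramble. The class I rows summed to 1310 to 1350 FPKM and 2270 to 2300 FPKM, beside 1440 to 1490 with shCREBBP.572 and 1890 to 2270 with scramble. Both sums placed shCREBBP.1027 lowest of the 4 groups. Near-identical HLA genes share reads, so values of single HLA rows are uncertain. The number of higher members was 14 for class II and 12 to 14 for class I in every alternative, with 2 class II members lower after quantile or upper-quartile scaling.

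**Figure D2:**
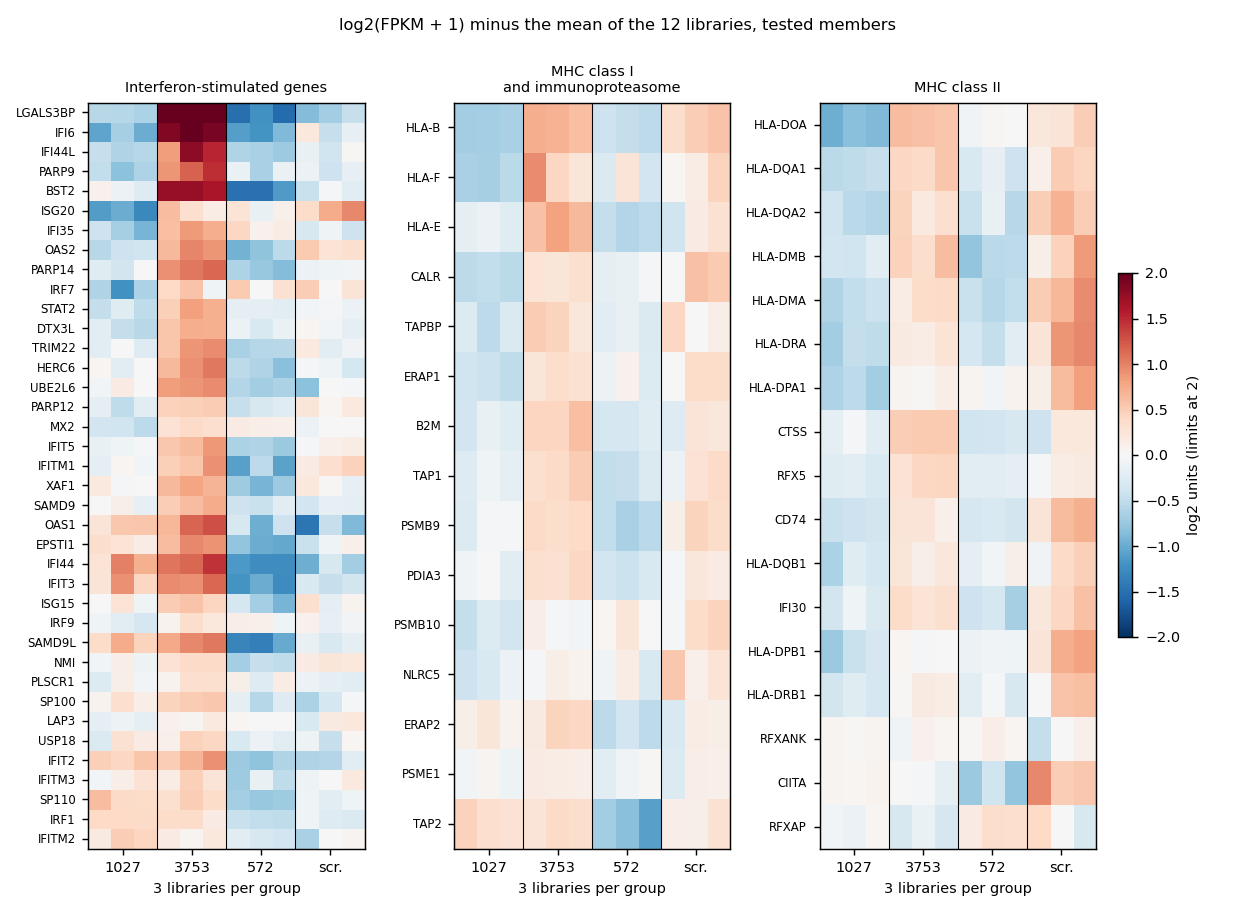
Each cell is log2(FPKM + 1) of 1 library minus the mean of the gene over the 12 libraries (colour, log2 units), for tested members of 3 lists, less 1 in each of the lists of interferon-stimulated and MHC class I genes (rows, ordered by the difference between the hairpins) and 3 libraries in each of 4 groups (columns). Most interferon-stimulated genes are highest with shCREBBP.3753, while most genes of MHC class II chains are lowest with shCREBBP.1027.

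B-cell identity genes split rather than moving as a block. Of 30 listed genes of B-cell receptor signalling, 26 were tested, with 12 higher (46.2%), 6 lower (23.1%) and a median of 0.16. Over all rows these shares were 29.1% and 19.7%. CD81, a tetraspanin on a row with TSSC4, fell from 211, 215 and 204 FPKM to 133, 134 and 118 FPKM, -0.71 ± 0.06 (SE; limma adjusted p = 4.0e-04). The receptor chains CD79A and CD79B rose by 0.48 and 0.63, and the kinase BTK by 0.64. NFATC1, a calcium-driven transcription factor downstream of the receptor, and the kinase subunit PIK3CD fell, with -0.95 and -0.59. Another NFATC1 row was tested and not called. Of 24 tested germinal centre genes, 7 were higher (29.2%, the share of all rows) and 9 lower (37.5%), and the median was -0.003. LMO2, 1 of the 9 lower, passed the filter only through shCREBBP.1027, and without it 8 of 23 were lower. SPIB, an ETS factor of B cells, rose most: it held 3.78, 4.19 and 3.41 FPKM with shCREBBP.1027 and 16.6, 15.3 and 12.4 FPKM with shCREBBP.3753, 1.71 ± 0.12 (SE; limma adjusted p = 2.4e-04). CXCR4, the dark zone chemokine receptor, and the related ETS factor SPI1 rose by 0.87 and 0.74. MEF2B (on a row with MEF2BNB and MEF2BNB-MEF2B), BACH2, MEF2C and FOXO1, transcription factors of the germinal centre, fell by 0.55, 0.58, 0.40 and 0.34. PAX5, the B-lineage factor, stood at 0.06 and was not called.

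Plasma cell genes were likewise mixed, with 7 of 20 higher (35.0%) and 8 lower (40.0%), against 29.1% and 19.7% of all rows. SLAMF7, a surface receptor of plasma cells, rose from 34.9, 33.5 and 35.8 FPKM to 183, 177 and 175 FPKM, 2.33 ± 0.04 (SE; limma adjusted p = 6.8e-06). MZB1, a chaperone of antibody folding on a row with PROB1, rose from 85.9, 80.8 and 81.3 FPKM to 369, 337 and 339 FPKM, and SDC1 (CD138) from 1.18, 0.856 and 1.07 FPKM to 4.09, 3.73 and 3.84 FPKM. The factors that drive plasma cell fate did not rise with them: PRDM1 (BLIMP1) fell by 0.55 and IRF4 by 0.24, and XBP1 was not called (0.11). TNFRSF17 (BCMA), on a row with SNX29, fell by 0.97.

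Surface molecules held some of the widest gaps. Of 43 listed B-cell surface antigens, 25 were tested, 14 higher (56.0%) and 6 lower (24.0%), against 29.1% and 19.7% of all rows. CD52, a small glycoprotein of lymphocytes, was at 0.599, 0.494 and 1.17 FPKM with shCREBBP.1027 and 17.3, 12 and 18.2 FPKM with shCREBBP.3753, 3.26 ± 0.21 (SE; limma adjusted p = 1.8e-04). CD37, a tetraspanin of B cells, held 0.473, 0.343 and 0.522 FPKM and 4.6, 4.6 and 3.41 FPKM. Both antigens passed the filter only through shCREBBP.3753, with means of 0.804 FPKM for CD52 and 0.177 FPKM for CD37 over the other 9 libraries. Without them 12 of 23 were higher (52.2%), and with rows of a mean of at least 5 FPKM only, 8 were higher and 3 lower. MS4A1 (CD20) rose by 0.72, the adhesion receptor CD48 by 1.07 and CD70 by 0.91. CD84, a SLAM family receptor, fell from 5.35, 5.94 and 5.83 FPKM to 1.09, 1.25 and 0.927 FPKM, -1.69 ± 0.10 (SE; limma adjusted p = 1.4e-04). CD58, the ligand of CD2, and ICOSLG, the ligand of ICOS, fell by 0.61 and 0.76. Among 14 tested receptors of chemotaxis and homing, 7 were higher and 3 lower, beside 29.1% and 19.7% of all rows. GPR183, the oxysterol receptor that guides B cells to outer follicles, fell from 26, 30.9 and 27.9 FPKM to 12.4, 8.46 and 13 FPKM, -1.27 ± 0.16 (SE; limma adjusted p = 0.00156). RGS2, an inhibitor of G protein signalling, rose from 5.31, 4.8 and 4.83 FPKM to 21.8, 21.3 and 23.6 FPKM.

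Glycolysis genes were higher with shCREBBP.3753 than with shCREBBP.1027 almost as a whole. Of 30 listed, 25 were tested, 22 were higher (88.0%, against 29.1%) and 2 lower, with a median of 0.67. Summed over the listed rows, levels were 8870 to 9350 FPKM with shCREBBP.1027 and 14000 to 14700 FPKM with shCREBBP.3753. The sums were 12100 to 12600 FPKM with shCREBBP.572 and 11400 to 16600 FPKM with scramble, so shCREBBP.1027 was the lowest group. PFKFB4, which makes the activator of phosphofructokinase, rose from 4.09, 2.16 and 3.46 FPKM to 25.7, 16.8 and 22.5 FPKM, 2.43 ± 0.22 (SE; limma adjusted p = 5.1e-04). VEGFA, a vascular growth factor induced by low oxygen, rose from 18.9, 20.3 and 18.7 FPKM to 73.1, 54.6 and 63 FPKM, 1.66 ± 0.11. CA9, the carbonic anhydrase known as a marker of low oxygen, was listed at 0, 0.354 and 0.0898 FPKM and 2.63, 2.04 and 2.95 FPKM. Along the pathway, the glucose transporter SLC2A1 rose by 0.94, HK1 by 0.92, PFKP by 0.97, TPI1 by 1.12, ENO1 by 1.01 and LDHA by 1.25; PDK1, which keeps pyruvate out of mitochondria, rose by 1.28. GPI was not called (-0.10). BNIP3, a mitophagy receptor also induced by low oxygen, went against the rest (-0.81), but at under 2 FPKM and with a call lost in 10 of 21 alternatives. TXNIP, the inhibitor of glucose uptake, fell from 82.4, 83.7 and 80.6 FPKM to 51.1, 50.7 and 55.4 FPKM, -0.64 ± 0.05; a fit of all 12 libraries, in which 1 scramble library lists TXNIP at 0, did not call it (limma adjusted p = 0.655, against 2.7e-04 without them). In every alternative 18 to 22 members were higher.

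Targets of p53 were also mostly higher. Of 26 listed, 23 were tested and 15 were higher (65.2%, against 29.1% of all rows). Lower were 2 (up to 4 in the alternatives), and the median was 0.47. CDKN1A (p21; hg19 chromosome 6, 36644237 to 36655116), the cell cycle inhibitor, rose from 9.19, 9.46 and 7.89 FPKM to 45.5, 46.6 and 51 FPKM, 2.31 ± 0.08 (SE; limma adjusted p = 4.4e-05). BTG2, an antiproliferative gene, rose from 23.1, 25.3 and 24 FPKM to 108, 105 and 97.6 FPKM, 2.06 ± 0.06 (SE; limma adjusted p = 2.9e-05). TP53I3, TP53INP1, BBC3 (PUMA, on a row with MIR3191) and CCNG1 rose by 1.37, 1.19, 1.00 and 0.93. MDM2, the ligase that degrades p53, rose by 0.33. Another TP53I3 row was tested and not called. GADD45A fell from 10.5, 13.3 and 8.64 FPKM to 6.82, 4.09 and 4.42 FPKM and ZMAT3 by 0.58. In the BCL2 family, 8 of 15 tested were higher (53.3%) and 1 lower (6.67%), against 29.1% and 19.7% of all rows. The killers BAX, BAK1 and HRK rose by 0.40, 0.30 and 0.50, and the protectors MCL1 (on a row with ADAMTSL4-AS1) and BCL2L1 by 0.45 and 0.38. Apart from CDKN1A, CDKN2D was the only one of 7 tested cyclin-dependent kinase inhibitors called, at 0.77.

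Proliferation genes did not move as a group, and their counts depended on scaling. Of 33 tested genes of G1/S and replication, 7 were higher (21.2%) and 9 lower (27.3%). Of 33 tested genes of G2/M and mitosis, 5 were higher (15.2%) and 9 lower (27.3%), against 29.1% and 19.7% of all rows. After either quantile normalization or upper-quartile scaling the lower counts of these lists were 14 and 17. Of all 11757 rows, 3007 were lower after quantile normalization and 3133 after upper-quartile scaling. MKI67 fell from 51.1, 36.7 and 50.1 FPKM to 24.3, 24.5 and 22.6 FPKM, -0.91 ± 0.13 (SE; limma adjusted p = 0.00243). CDC20, the activator of the anaphase-promoting complex, and the mitotic kinase PLK1 fell by 0.85 and 0.68, and the replication clamp loaders RFC3 and RFC4 by 0.73 and 0.68. In the other direction, TOP2A rose by 0.70, HMMR by 0.78 and the checkpoint mediator CLSPN by 0.67, so mitotic genes that usually peak together were found on both sides. MYC held 185, 184 and 173 FPKM and 114, 116 and 103 FPKM, a fall of 0.70 (SE 0.06; limma adjusted p = 3.6e-04), while MXI1, a MYC antagonist, rose from 8.55, 8.25 and 7.85 FPKM to 20.2, 17.2 and 20.9 FPKM. Of 34 tested MYC network and ribosome biogenesis genes, 8 were higher (23.5%) and 10 lower (29.4%). The lower count was 16 after quantile normalization, and 6 and 5 without replicate 1 of shCREBBP.1027 or of shCREBBP.3753.

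Genes of amino acid supply and of the ATF4 response were lower. Of 33 listed, 29 were tested, 17 were lower (58.6%, against 19.7%) and 4 higher, with a median of -0.30. SLC7A11, the cystine transporter, on a row with its antisense RNA, fell from 20.9, 23.3 and 23.1 FPKM to 5.08, 4.64 and 4.71 FPKM, -2.01 ± 0.07 (SE; limma adjusted p = 4.4e-05). Its heavy chain SLC3A2 fell from 180.1, 195 and 162 FPKM to 57.9, 61.7 and 62.9 FPKM, -1.54 ± 0.07. CHAC1, which degrades glutathione, fell from 31.4, 32.1 and 27.2 FPKM to 10.7, 11.1 and 12.3 FPKM. The serine synthesis enzymes PHGDH and PSAT1 fell by 0.99 and 1.02, ATF4 itself by 0.85, and the transporters SLC7A5 and SLC1A5 by 0.75 and 0.77. ASNS and TRIB3, 2 further ATF4 targets, were at -0.02 and -0.12 and not called. SHMT2, AARS (on a row with EXOSC6), DDIT4 and ALDH1L2 rose, by 0.89, 0.59, 0.87 and 0.58. In the endoplasmic reticulum the direction was opposite, with 17 of 26 folding and transport genes higher (65.4%, against 29.1% of all rows). Lower were 4 (15.4%), or 1 in a fit of all 12 libraries and 2 without shCREBBP.1027 replicate 1. HSPA5 (BiP) rose by 0.65, HSP90B1 by 0.61, SEL1L, an adaptor of ER-associated degradation, by 0.93, and SSR2, a subunit of the translocon-associated complex, from 133, 166 and 143 FPKM to 304, 298 and 322 FPKM. ERN1, the stress sensor IRE1, fell by 0.61.

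Sterol and fatty acid synthesis showed no common direction. Higher were 6 of 32 tested genes (18.8%) and lower 9 (28.1%), against 29.1% and 19.7% of all rows. The lower count was 14 to 15 under the 2 scalings and 5 without replicate 1 or replicate 2 of shCREBBP.3753. MVD, an enzyme of the mevalonate pathway, fell from 51.5, 82 and 44.6 FPKM to 25, 14.9 and 21.8 FPKM, -1.47 ± 0.28 (SE; limma adjusted p = 0.00651), and MVK, of the same pathway, by 0.61. FDPS and IDI1, also of that pathway, rose by 0.63 and 0.68 (a further IDI1 row was called lower), and ACLY, which supplies acetyl-CoA, from 64, 61 and 61 FPKM to 111, 112 and 114 FPKM.

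**Figure D3:**
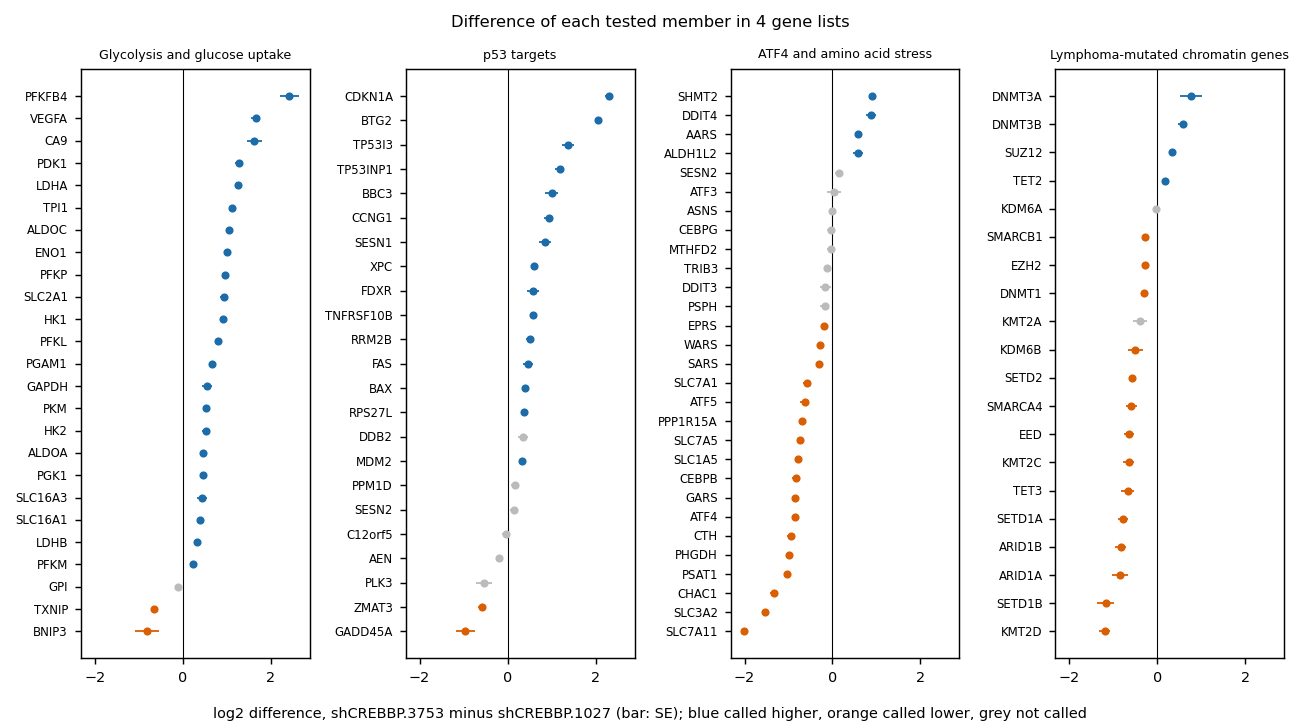
Log2 difference with its SE (horizontal axis, shCREBBP.3753 minus shCREBBP.1027) for every tested member of 4 lists (vertical axis), blue for called higher, orange for called lower and grey for not called. Glycolysis and p53 targets lie mostly to the right, with CDKN1A at 2.31 and PFKFB4 at 2.43; ATF4 and chromatin genes lie mostly to the left, with SLC7A11 at -2.01.

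NF-kappaB genes were mostly lower or not called. Of 32 listed, 18 were tested, 8 were lower (44.4%, against 19.7%) and 4 higher, with a median of -0.36. TNFAIP3 (A20), the feedback inhibitor, fell from 12.3, 14.6 and 13.8 FPKM to 3.76, 3.86 and 3.71 FPKM, -1.60 ± 0.08 (SE; limma adjusted p = 8.8e-05). The subunits RELA, NFKB1 and NFKB2 fell by 0.79, 0.42 and 0.42, and the inhibitors NFKBIA and NFKBIB by 0.60 and 0.88. TRAF1 rose against these, from 1.75, 1.85 and 1.87 FPKM to 6.41, 5.06 and 5.59 FPKM. Among 27 tested CREB targets, cofactors and immediate early genes, 8 were higher (29.6%) and 11 lower (40.7%), against 29.1% and 19.7% of all rows. PPARGC1A, 1 of the 11 lower, passed the filter only through shCREBBP.1027, and without it 10 of 26 were lower. The lower count was 7 without shCREBBP.1027 replicate 3, 4 with rows of a mean of at least 5 FPKM only, and at most 13. FOSB fell from 4.86, 5.87 and 4.39 FPKM to 1.56, 1.17 and 0.989 FPKM, -1.43 ± 0.14 (SE; limma adjusted p = 6.9e-04), whereas JUND, JUN and KLF2 rose by 1.04, 0.86 and 1.39. CREB1, the factor from which CREBBP takes its name, rose by 0.54. The full CREB motif TGACGTCA was in 2 of 24 promoters of this list (8.33%), against 3.40% of the promoters of tested rows.

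**Figure D4:**
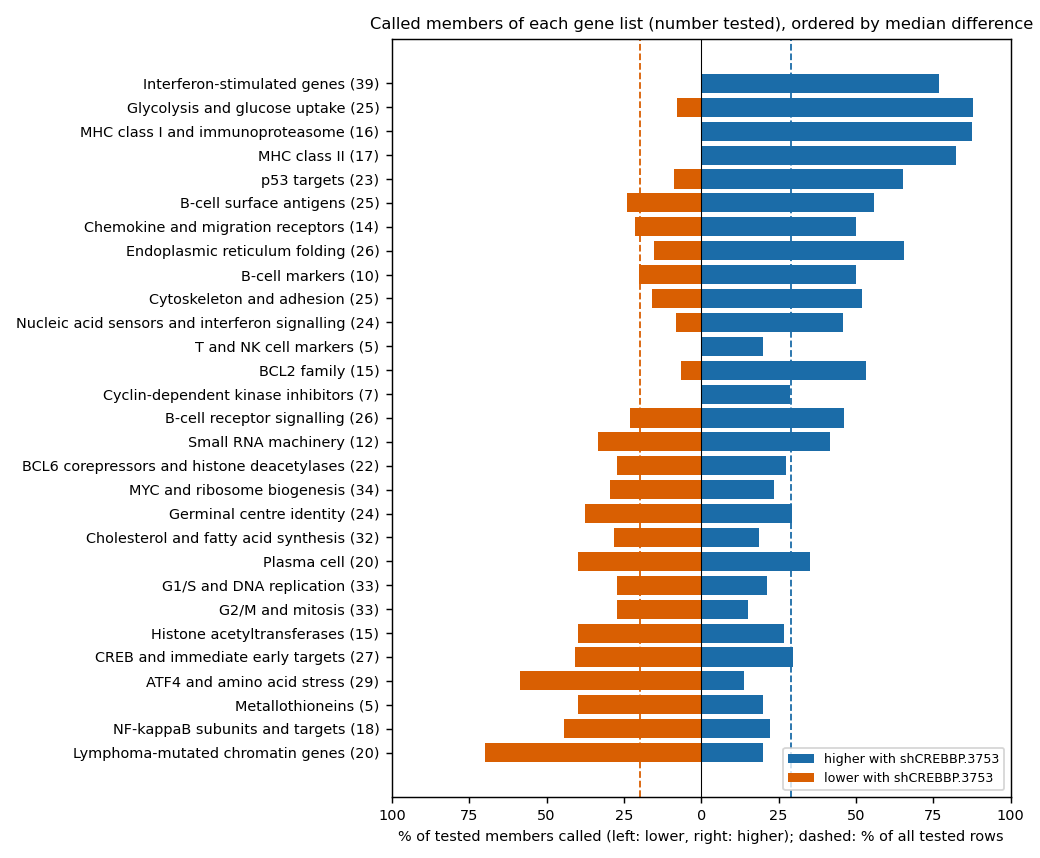
Share of tested members called higher (right, blue) or lower (left, orange) with shCREBBP.3753, in percent, for each gene list with at least 5 tested rows; dashed lines mark 29.1% and 19.7% of all tested rows. MHC, interferon-stimulated and glycolysis genes exceed the right line most, chromatin and ATF4 genes the left one.

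Some of the widest differences belonged to genes outside the immune and metabolic lists. TUBB3 (hg19 chromosome 16, 89988417 to 90002505), the neuronal beta-tubulin isotype, held 2.34, 2.18 and 2.33 FPKM with shCREBBP.1027 and 34.4, 33.3 and 30.9 FPKM with shCREBBP.3753. The difference of 3.37 ± 0.07 (SE; limma adjusted p = 9.5e-06) was the largest rise under the rule for named genes, and with 27.2, 25.2 and 28.3 FPKM for shCREBBP.572 and 32.5, 36 and 45.5 FPKM for scramble it was the shCREBBP.1027 libraries that stood apart. TUBA1A, an alpha-tubulin also typical of neurons, rose from 17.2, 16.9 and 17.8 FPKM to 76.9, 71.3 and 83.2 FPKM, while TUBB, TUBA1B and TUBB4B, the common isotypes, were not called. Of 25 tested cytoskeleton and adhesion genes 13 were higher (52.0%, against 29.1% of all rows) and 4 lower (16.0%, against 19.7%). Over the alternatives 1 to 7 were lower. CORO1A, EZR and VIM rose by 1.26, 0.84 and 1.09. PCBD1, a dehydratase that recycles the cofactor of phenylalanine hydroxylase, rose from 6.41, 8.62 and 7.25 FPKM to 51.2, 53 and 50.02 FPKM, and was likewise low in shCREBBP.1027 alone. UCP2, a mitochondrial carrier, rose from 4.5, 4.27 and 6.3 FPKM to 38.2, 33.5 and 32.9 FPKM, with 11.1, 11.8 and 10.2 FPKM in shCREBBP.572 and 25.9, 20.8 and 19 FPKM in scramble between them. DPEP1, a membrane dipeptidase, rose from 3.18, 1.48 and 3.26 FPKM to 20.1, 15.6 and 17.6 FPKM, PAM, which amidates peptides, from 9.51, 8.14 and 10.2 FPKM to 48.6, 43.5 and 47.8 FPKM, and NXPH4, a neurexophilin, from 2.34, 2.32 and 3.36 FPKM to 17.9, 14.4 and 13.9 FPKM. The rule for the largest rises admitted only rows whose groups did not overlap.

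Among the falls, ESR1, the oestrogen receptor alpha (hg19 chromosome 6, 152011140 to 152424557), dropped from 52.8, 48 and 53.4 FPKM to 7.25, 8.23 and 8.01 FPKM, -2.57 ± 0.07 (SE; limma adjusted p = 2.9e-05). Its level was 23.7, 25.7 and 23.2 FPKM with shCREBBP.572 and 18.7, 12.3 and 12.8 FPKM with scramble, so the shCREBBP.1027 libraries were above and those of shCREBBP.3753 below all others. C17orf104 had the largest fall under the rule for named genes, from 10.05, 11.4 and 9.78 FPKM to 1.06, 1.13 and 0.361 FPKM, -2.65 ± 0.19 (SE; limma adjusted p = 2.5e-04). ABHD12B, of the alpha/beta hydrolase family, fell from 7.45, 7.8 and 8.79 FPKM to 0.461, 0.836 and 0.625 FPKM, and COL24A1, a fibrillar collagen, from 8.66, 8.89 and 7.52 FPKM to 1.3, 1.14 and 1.38 FPKM. GLRB, the beta subunit of the glycine receptor, fell from 4.66, 4.92 and 4.37 FPKM to 0.225, 0.219 and 0.284 FPKM, and the means of shCREBBP.572 (5.9, 5.58 and 6.32 FPKM) and scramble (2.22, 3.48 and 3.19 FPKM) lay nearer to shCREBBP.1027. XPO4, a nuclear transport receptor, fell from 37.8, 38 and 33.8 FPKM to 10.2, 7.25 and 11 FPKM. NMRK1, a kinase that feeds NAD synthesis, fell from 11.8, 11 and 11.2 FPKM to 1.2, 2.88 and 0.607 FPKM. A further NMRK1 row was tested and not called. The myotubularin relative MTMR11 (-2.02), DCAF4L1 (-1.86) and the antisense RNAs NAPA-AS1 (-2.20) and DLEU7-AS1 (-2.08) also fell. MTMR11, DCAF4L1 and NAPA-AS1 passed the filter only through shCREBBP.1027. Antisense values are uncertain, since the sources used here do not say whether values were assigned by strand.

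**Figure D5:**
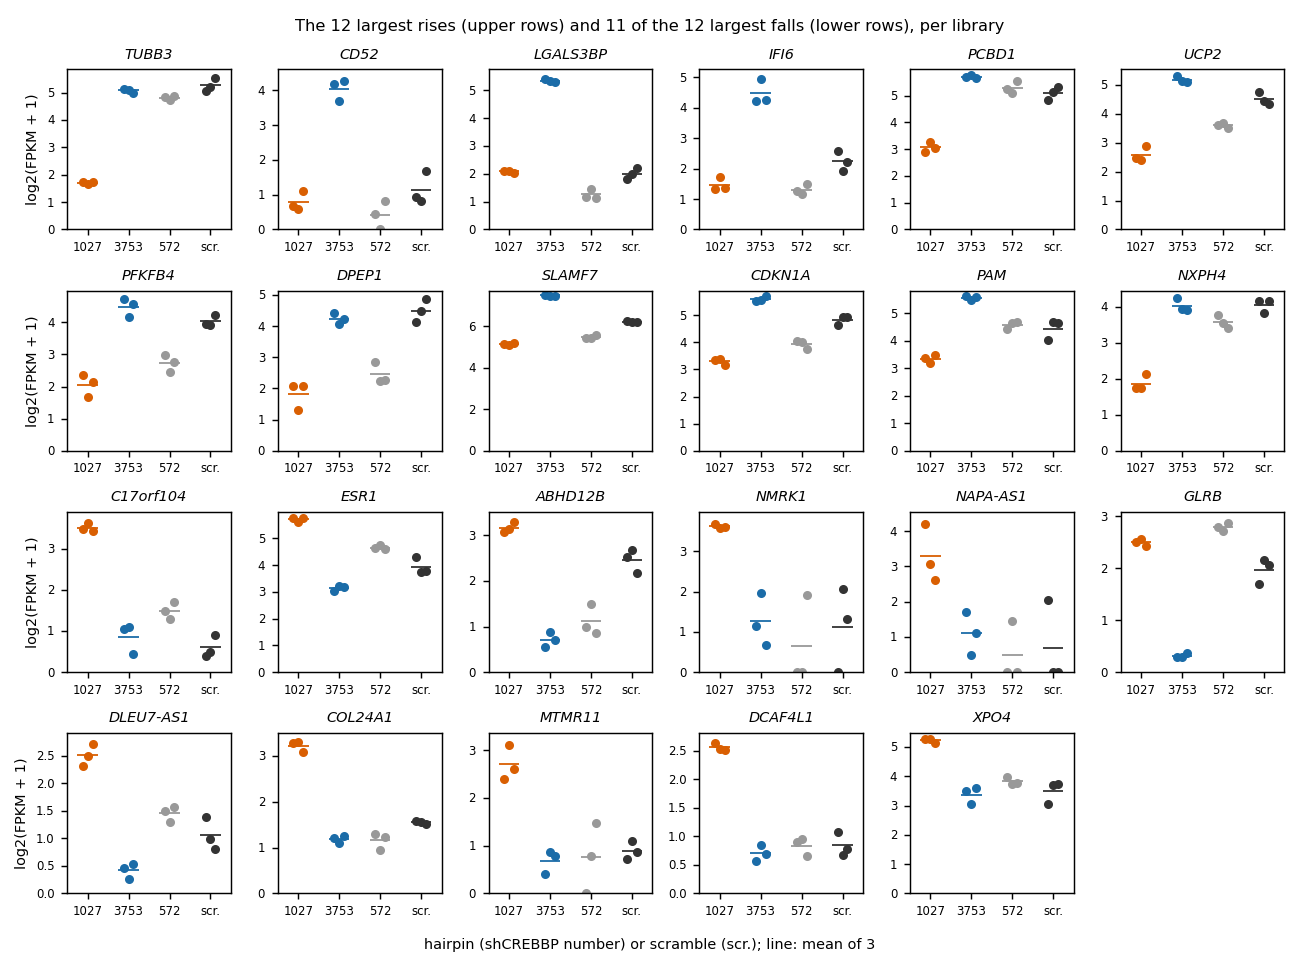
log2(FPKM + 1) per library (points) with the mean of 3 (line) in each of the 4 groups, for the 12 largest rises (2 upper rows) and 11 of the 12 largest falls (2 lower rows) under the rule for named genes. The rule admitted only rows on which shCREBBP.1027 and shCREBBP.3753 do not overlap. The 2 other groups lie near either hairpin depending on the gene.

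A few rows were listed at 0 in 1 group. GABRD, a subunit of the GABA-A receptor, was listed at 4.53, 1.93 and 7.13 FPKM with shCREBBP.1027 and at 0 in the other 9 libraries. RAB15, a small GTPase, was listed at 7.5, 1.73 and 2.92 FPKM with shCREBBP.1027 and at 0 with shCREBBP.3753. FCRLB, an Fc receptor-like gene, was listed at 2.42, 34.2 and 4.54 FPKM against 0. DNHD1, RPA3OS and a row of MDC1, the mediator of the DNA damage checkpoint, were also listed at 0 with shCREBBP.3753, and SMTNL1 with shCREBBP.1027. These zeros belong to single rows, not to whole genes: further rows of the same name were tested for RAB15, FCRLB and RPA3OS, none of them called, and for MDC1 and DNHD1, 1 of 1 and 3 of 4 called. GABRD, RAB15 and RPA3OS passed the filter only through shCREBBP.1027. An exact 0 in such files can also be a failed estimate, so no fold is given.

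The other libraries placed the pair of hairpins. Of the 485 rows called higher by at least 1, the scramble mean lay between the hairpins on 392, above both on 76 and below both on 17, and it was nearer to shCREBBP.3753 on 335. Of the 288 rows called lower by at least 1, it lay between them on 208 and was nearer to shCREBBP.3753 on 197. The shCREBBP.572 mean was nearer to shCREBBP.3753 on 302 and 189 of these rows. These counts are descriptions without a test.

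Markers of other cell types were also read. Of 17 T and NK cell markers 5 were tested and 1 was higher, ZAP70, at 12.5, 11.5 and 11.6 FPKM against 27.2, 27.4 and 23.8 FPKM. Their summed level was 59.1 to 64.4 FPKM with shCREBBP.1027 and 79.5 to 81.6 FPKM with shCREBBP.3753. Myeloid markers, 2 of 14 tested, summed to 4.08 to 5.05 FPKM and 3.83 to 4.03 FPKM, and epithelial and fibroblast markers, 2 of 13 tested, to 3.70 to 4.96 FPKM and 1.62 to 1.94 FPKM. FN1, fibronectin, of the last list, fell from 3.62, 2.16 and 2.29 FPKM to 0.626, 0.519 and 0.683 FPKM, and passed the filter only through shCREBBP.1027. Of 12 B-cell markers 10 were tested, 5 higher and 2 lower (1 under several alternatives), beside 29.1% and 19.7% of all rows. The sum of these markers was 356 to 374 FPKM with shCREBBP.1027 and 481 to 514 FPKM with shCREBBP.3753. LMO2, 1 of the 2 lower, passed the filter only through shCREBBP.1027, and without it 1 of 9 was lower. In such bulk samples fewer cells of a type and less RNA per cell cannot be told apart, and the part of these markers in the results was not tested. Of 5 tested metallothioneins and regulators, 1 was higher and 2 lower, beside 29.1% and 19.7% of all rows. MT1X, the most abundant, was called higher, at 87.5, 99.3 and 105 FPKM against 112, 116 and 127 FPKM, 0.28 ± 0.08 (SE; limma adjusted p = 0.0304). That call was lost under both scalings, in a fit of all 12 libraries, and without any of shCREBBP.1027 replicates 1 and 2 and shCREBBP.3753 replicates 2 and 3. MT2A and the metal sensor MTF1 fell by 0.85 and 0.68.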

How the data were processed

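The authors deposited 1 table of 24181 assembled loci with a value per library. Values were read as FPKM: the submitters' processing notes name Cufflinks, with CASAVA 1.8, TopHat2 and hg19, but the deposited table does not state the unit. No source used here gives the annotation or the use of strand. Several gene names stand on 725 rows; such rows, paralogs and overlapping genes are uncertain. Coordinates are hg19 intervals of loci, counted from 1.

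Rows averaging 1 FPKM or more across all 12 libraries were tested as log2(FPKM + 1), which understates changes of low rows, with limma 3.58.1 in R 4.3.3: 6 libraries, a mean per hairpin, a variance trend, and Benjamini-Hochberg adjustment over 11757 rows with a threshold of 0.05. The same fit was tested on simulated data. Low values follow steps that gave relative depth only, so there are no counting intervals. The named genes are CREBBP, EP300, the 12 largest rises and falls (1 name per row, no value of 0, groups apart), up to 3 called members per direction in each of 32 lists, and up to 6 rows per direction listed at 0; further list members were named as examples after their values were seen. Symbols of small RNAs and LOC genes were tested but not named. Of the lists, the mitochondrially encoded transcripts had 0 of 15 members in the table. Members and lists were chosen with earlier results of these data known. A member is its row with the highest mean, and a list is described by counts and its median, without a set test. Promoters came from RefSeq (GRCh38.p14), and transcript length and GC content from GENCODE 29, for 89.6% of tested rows. The 21 alternatives changed the libraries fitted, the block, pseudocount, filter, scaling and variance model or left out 1 library; the length and GC correction was added after seeing the data, as were the counts without rows that passed the filter through 1 group only. Some genes under the rule are not reported here.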

Additional observations from a re-analysis of the deposited data

How the results depend on the processing

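No row called in 1 direction was called in the other under any of the 21 alternatives. Leaving out 1 library at a time gave 2849 to 3351 rows higher, 1804 to 2024 lower and 729 to 853 called with a difference of at least 1. With rows of a mean of at least 5 FPKM only, that last count was 469 of 8210 tested rows, in place of 773 of 11757. CREBBP was called in every alternative, with limma adjusted p of 3.3e-05 to 0.00678, and with differences of -0.90 to -0.83 when 1 library was left out. Deviations from the hairpin means were nearly uncorrelated between same-numbered libraries (0.064, -0.03 and -0.007). These deviations rest on 3 libraries per hairpin, so they cannot show whether the numbers mark a shared culture or day. With the replicate block 2974 rows were higher and 1953 lower. Of 167 named rows, 144 kept their call throughout. CD68, not called, changed sign after quantile normalization (0.0457), and ranged from -0.1418 to 0.0348 when 1 library was left out. Calls of AGO1, LMO2, DKC1, FASN, SYVN1, SEC61B, FOS, PMAIP1, MT1X, TUBB2A and MSN, and of the rows listed at 0 for SMTNL1, FCRLB, MDC1 and RPA3OS, were lost under some alternatives; the cause was not tested. Depth is known only relative to other libraries, which limits what can be said of rows near the filter.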
